A study of Mus musculus with 18 samples.

Results

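The transcripts described here encode the egg coat and proteins that the mouse oocyte secretes: Zp1, Zp2 and Zp3 of the zona pellucida, the growth factors Gdf9 and Bmp15, the oocyte secreted protein Oosp1, the egg protease ovastacin (Astl) and tissue-type plasminogen activator (Plat). These 8 genes were taken by their symbol in the platform annotation, out of 19935 genes that a probe set names alone, and each was read by 1 probe set. They were measured in 18 single 2-cell embryos, 1 embryo to an Affymetrix Mouse Gene 1.0 ST array, after amplification of the embryo's RNA. They were 9 Parg(110)-/+ embryos of 3 Parg(110)-/- fathers (PargA, PargB and PargC), set against 9 wild-type (WT) embryos of 3 wild-type fathers (WT1, WT2 and WT3). Every embryo had a wild-type mother, came from natural mating on the 129SVE background, and is written as its father and its number, as in PargB-1. Each father gave 3 embryos, so embryos of 1 father are siblings. Parg encodes poly(ADP-ribose) glycohydrolase, which removes poly(ADP-ribose) from proteins, and Parg(110)-/+ embryos carry 1 allele that lacks exons 2 and 3. A difference set by the father's sperm therefore cannot be told apart from one set by the embryo's own genotype.

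The zona pellucida is an extracellular coat that the growing oocyte builds from secreted glycoproteins, which sperm must bind and cross. After fertilization the oocyte releases ovastacin from cortical granules, and this metalloprotease cleaves ZP2, so that further sperm no longer bind. GDF9 and BMP15 are ligands of the TGF-beta family that act from the oocyte on the granulosa cells around it. Plat messenger RNA is a classical example of a dormant maternal message that is translated only when the oocyte matures. All of these messages are stored in the oocyte, and maternal messages of the mouse are cleared largely by the time the embryo starts its own transcription at the 2-cell stage. Only the 2-cell stage was measured, so the loss of these messages over time could not be measured. What could be measured was the level in each embryo and how it differed from embryo to embryo.

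The oocyte transcription factor FIGLA binds the E-box CANNTG in zona gene promoters, and NOBOX binds TAATTG and TAATTA, as in the Gdf9 promoter. Promoters of 4 of the 8 genes (Zp3, Bmp15, Oosp1 and Astl) were matched in RefSeq annotation of GRCm38.p6, and they are shown because they are the upstream sequence from which the stored messages were once transcribed in the oocyte. Each is the 250 bases before the gene's start, on the strand of the gene, and capitals mark E-boxes, the TATA motif TATAAA and the motifs TAATTG and TAATTA, each sought on both strands.
Zp3, plus strand, chr5:135979855-135980104: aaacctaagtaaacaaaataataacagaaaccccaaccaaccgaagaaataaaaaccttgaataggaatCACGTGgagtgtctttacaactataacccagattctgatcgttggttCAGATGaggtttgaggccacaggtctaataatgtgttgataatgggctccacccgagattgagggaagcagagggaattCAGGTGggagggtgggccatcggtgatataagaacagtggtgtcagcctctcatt
Bmp15, minus strand, chrX:6320725-6320974: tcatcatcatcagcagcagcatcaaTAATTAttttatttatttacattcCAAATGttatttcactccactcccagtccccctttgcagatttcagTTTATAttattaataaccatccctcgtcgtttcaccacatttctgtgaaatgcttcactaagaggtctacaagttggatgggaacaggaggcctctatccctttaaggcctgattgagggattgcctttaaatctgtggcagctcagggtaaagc
Oosp1, minus strand, chr19:11691052-11691301: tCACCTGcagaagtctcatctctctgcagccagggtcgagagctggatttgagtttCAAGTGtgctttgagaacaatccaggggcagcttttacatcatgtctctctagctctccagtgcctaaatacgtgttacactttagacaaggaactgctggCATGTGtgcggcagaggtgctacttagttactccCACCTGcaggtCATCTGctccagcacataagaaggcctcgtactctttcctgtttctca
Astl, plus strand, chr2:127338389-127338638: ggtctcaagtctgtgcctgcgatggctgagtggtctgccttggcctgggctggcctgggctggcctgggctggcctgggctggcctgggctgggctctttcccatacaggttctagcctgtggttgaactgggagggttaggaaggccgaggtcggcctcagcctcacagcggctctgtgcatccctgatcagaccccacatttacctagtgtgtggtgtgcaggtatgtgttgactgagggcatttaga

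The Zp3 window held 3 E-boxes: CACGTG began 181 bases before the gene's start, CAGATG 134 bases and CAGGTG 55 bases before it. The Bmp15 window held 1 E-box (CAAATG, from 201 bases upstream), 1 TAATTA from 225 bases upstream and 1 TATAAA on the opposite strand from 155 bases upstream. The Oosp1 window held 5 E-boxes, and the Astl window held none of the motifs sought. Of 32851 promoter windows of the same length in the same annotation, 66.2% held CANNTG, 6.02% held CACGTG, 12.4% held TATAAA, 7.17% held TAATTG and 4.84% held TAATTA. A match is a run of letters and not a binding site, and the CACGTG windows are among those counted for CANNTG.

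Each of the 8 transcripts had a mean level above that of the median probe set at the 2-cell stage. Deposited values are log2 levels after RMA (robust multichip average), and a probe set is called bright where its mean lies at or above 6.47, the median of all probe set means; this is not a detection limit. Of the 8, 7 lay above the median of their array in 18 of 18 embryos, and Astl did so in 12 of 18, with a lowest level of 5.42. The level of one probe set cannot be compared with that of another, since probes differ in how well they bind. The plot of levels by embryo shows every value.

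**Figure D1:**
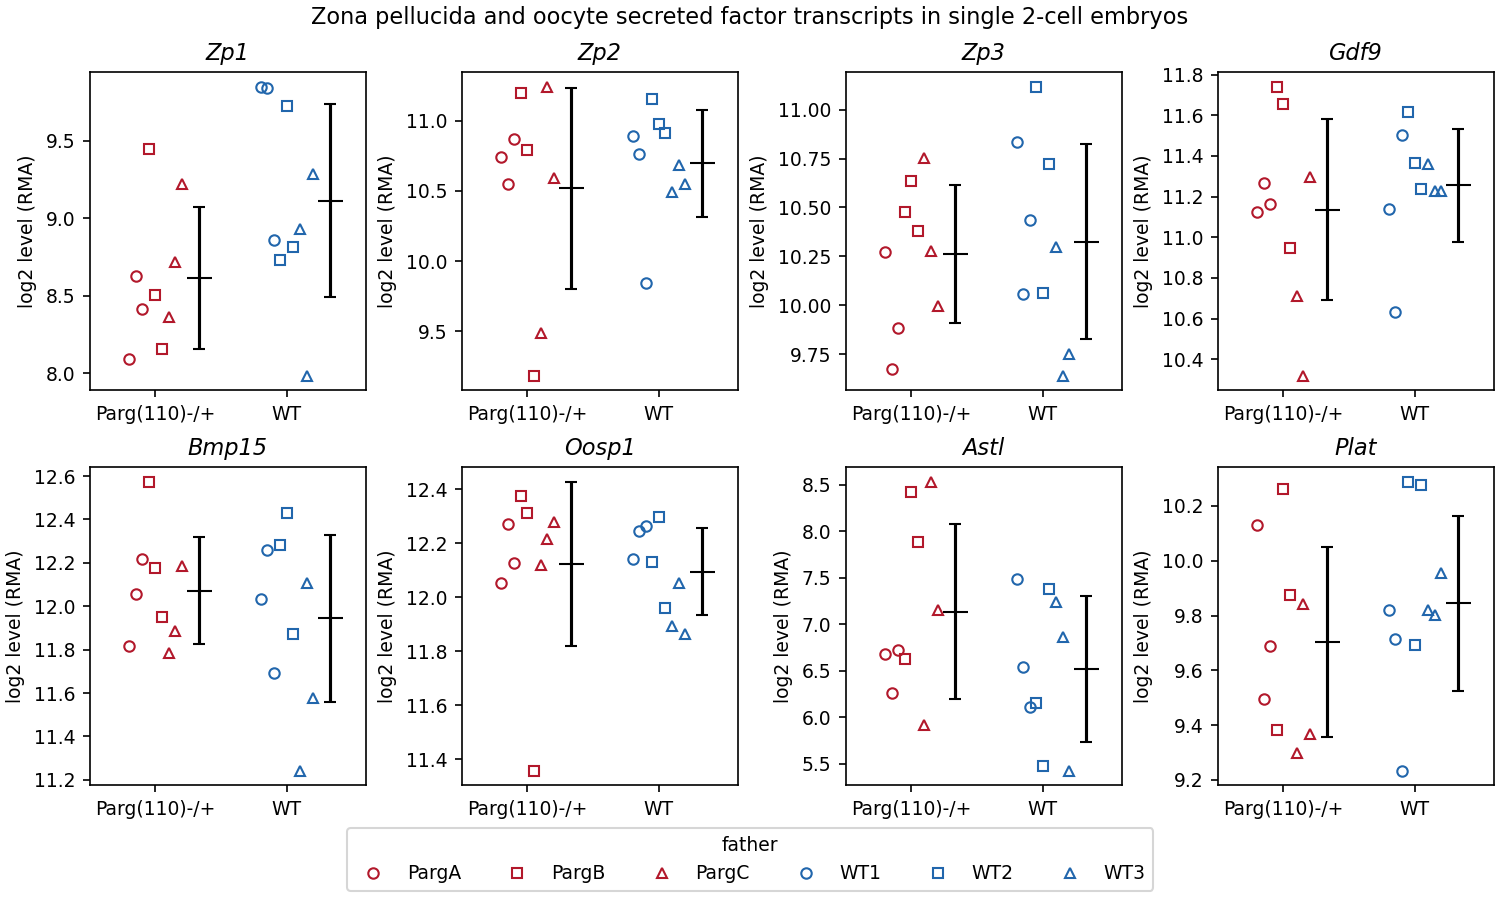
Log2 level (RMA) of each of the 8 transcripts in each embryo, 1 panel a gene, each panel with its own axis. Red symbols are the 9 Parg(110)-/+ embryos and blue symbols the 9 WT embryos, shapes mark the father, and bars give the mean and SD (n = 9). The genotypes overlap in every panel; Oosp1 in PargB-3 (11.36) and Zp2 in PargB-3 (9.18) sit below the other embryos, and Astl spreads from 5.42 to 8.54.

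Zp1 (probe set 10466091, chromosome 19), the least abundant protein of the coat, which cross-links its filaments, ranged from 8.09 through a median of 8.50 to 9.45 in Parg(110)-/+ embryos, against 7.98, 8.93 and 9.85 in WT embryos. The highest values were those of WT1-1 (9.85), WT1-2 (9.84) and WT2-2 (9.73), above every Parg(110)-/+ embryo, but the lowest was also a WT embryo (WT3-2), so all 9 Parg(110)-/+ embryos lay inside the WT range. Of the 9 Parg(110)-/+ embryos, 7 lay below the WT mean. The mean was 8.62 ± 0.46 in Parg(110)-/+ and 9.11 ± 0.62 in WT embryos (SD, n = 9 each).

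Zp2 (10567526, chromosome 7), the coat protein that sperm bind and that ovastacin cleaves, ranged from 9.18 through a median of 10.74 to 11.24 in Parg(110)-/+ embryos, against 9.84, 10.76 and 11.16 in WT embryos. The medians were close, and the spread differed in size: PargB-3 (9.18) and PargC-1 (9.49) lay below the whole WT range, while PargB-1 (11.20) and PargC-2 (11.24) lay above it. The SD was 0.71 in Parg(110)-/+ and 0.38 in WT embryos, a ratio of 1.87. The mean was 10.52 in Parg(110)-/+ and 10.70 in WT embryos.

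Zp3 (10526418, chromosome 5), which pairs with ZP2 in the filaments of the coat, ranged from 9.68 through a median of 10.28 to 10.75 in Parg(110)-/+ embryos, against 9.64, 10.30 and 11.12 in WT embryos. Every Parg(110)-/+ embryo lay inside the WT range. The mean was 10.26 ± 0.35 in Parg(110)-/+ and 10.32 ± 0.50 in WT embryos (SD, n = 9 each).

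Gdf9 (10376004, chromosome 11) ranged from 10.32 through a median of 11.16 to 11.74 in Parg(110)-/+ embryos, against 10.63, 11.24 and 11.62 in WT embryos. PargC-2 lay below the WT range, and PargB-1 (11.74) and PargB-2 (11.66) above it. The mean was 11.14 ± 0.44 in Parg(110)-/+ and 11.26 ± 0.28 in WT embryos (SD, n = 9 each). The annotated span of Gdf9 overlaps that of Uqcrq, a subunit of respiratory complex III; whether the probes can read both was not tested.

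Bmp15 (10603270, chromosome X), which forms dimers with GDF9, ranged from 11.79 through a median of 12.06 to 12.57 in Parg(110)-/+ embryos, against 11.24, 12.03 and 12.43 in WT embryos. PargB-1 (12.57) was the highest embryo of all and WT3-1 (11.24) the lowest. The mean was 12.07 ± 0.25 in Parg(110)-/+ and 11.94 ± 0.38 in WT embryos (SD, n = 9 each).

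Oosp1 (10466239, chromosome 19), a small secreted protein of the oocyte, ranged from 11.36 through a median of 12.22 to 12.38 in Parg(110)-/+ embryos, against 11.86, 12.13 and 12.30 in WT embryos. Of the Parg(110)-/+ embryos 8 lay between 12.05 and 12.38, and PargB-3 (11.36) stood apart below them. The mean was 12.12 ± 0.31 in Parg(110)-/+ and 12.09 ± 0.16 in WT embryos (SD, n = 9 each). Without PargB-3 the SD over the remaining embryos of both genotypes was 0.15, against 0.24 with it.

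Astl (10475789, chromosome 2) varied most, from 5.92 through a median of 6.72 to 8.54 in Parg(110)-/+ embryos, against 5.42, 6.54 and 7.48 in WT embryos. The 3 embryos PargC-2 (8.54), PargB-2 (8.43) and PargB-3 (7.88), lay above every WT embryo, and no Parg(110)-/+ embryo lay below the WT range. The mean was 7.13 ± 0.94 in Parg(110)-/+ and 6.52 ± 0.78 in WT embryos (SD, n = 9 each). The 3 high embryos came from fathers whose other embryos lay as low as 6.63 (PargB-1) and 5.92 (PargC-1).

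Plat (10570855, chromosome 8), a serine protease that activates plasminogen, ranged from 9.30 through a median of 9.69 to 10.26 in Parg(110)-/+ embryos, against 9.23, 9.82 and 10.29 in WT embryos. Every Parg(110)-/+ embryo lay inside the WT range. The mean was 9.70 ± 0.35 in Parg(110)-/+ and 9.84 ± 0.32 in WT embryos (SD, n = 9 each).

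Of the 72 values of the 8 transcripts in Parg(110)-/+ embryos, 58 lay inside the range of the 9 WT embryos, 10 above it and 4 below it. The share over all probe sets was not counted, so neither these counts nor the single embryos outside the WT range are read as a result. From the lowest to the highest embryo, Astl spanned 8.67-fold, Zp2 4.18-fold, Zp1 3.65-fold, Zp3 2.79-fold, Gdf9 2.68-fold, Bmp15 2.52-fold, Plat 2.08-fold and Oosp1 2.03-fold. Since spread depends on brightness in RMA values, each SD was set beside those of probe sets with a mean within 0.5 of it. The SD of Astl (0.90) was above that of 94.4% of 6616 such probe sets, and that of Bmp15 (0.32) above 88.4% of 824. For Oosp1, Zp2, Gdf9 and Zp1 the shares were 79.9%, 77.6%, 68.0% and 54.6%, and for Zp3 and Plat they were 47.9% and 19.4%. Plat thus varied less between embryos than most probe sets of its brightness, and Astl and Bmp15 more. The median SD of the probe sets compared was 0.50 for Plat, 0.19 for Astl and 0.16 for Bmp15, so these ranks depend on the brightness as well as on the transcript. The SD of 5 transcripts was larger in Parg(110)-/+ than in WT embryos and that of 3 smaller, with ratios from 0.65 (Bmp15) to 1.89 (Oosp1). The highest ratio rested on PargB-3: without that embryo it was 0.68 for Oosp1 (SD 0.11 in Parg(110)-/+ and 0.16 in WT embryos) and 1.42 for Zp2, and 4 transcripts had the larger SD in Parg(110)-/+ and 4 the smaller. Leaving out 1 WT embryo moved ratios as well, to 3.19 for Zp2 without WT1-3 and to 2.76 for Gdf9 without WT1-2. The split over all probe sets was not counted, and the difference in spread was not tested.

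The first comparison asked whether these messages differed between the genotypes. None of the 8 was called at an adjusted p under 0.1 in limma's fit, with p-values adjusted over all 28815 probe sets (Benjamini-Hochberg), where 0% of probe sets were called. At an unadjusted p under 0.05 the count was 0 of 8, against 10.5% of all probe sets (8.96% higher and 1.51% lower in Parg(110)-/+), and the methods' one-way test on the same values also gave 0 of 8 at either threshold. The excess of higher probe sets depended on the scaling: with array medians made equal 2.86% were higher and 3.36% lower (6.22% in all), with a second quantile normalization 4.27% were higher and 2.05% lower (6.32%). Of the 8, 3 lay higher and 5 lower in Parg(110)-/+ embryos, beside 19337 and 9478 of all 28815 probe sets. With array medians made equal the counts were 2 and 6, beside 13843 and 14972. The median log2 difference of the 8 as deposited was -0.09, against 0.05 over all probe sets. Zp1 came closest: it was lower by a log2 difference of -0.50 ± 0.25 (SE, limma adjusted p = 0.490), with a 95% interval from -1.02 to 0.02. With array medians made equal its unadjusted p was 0.0388 (log2 difference -0.55, limma adjusted p = 0.793). Set against the same 9 WT embryos, which the 3 values share, the embryos of each father gave -0.73 for PargA, -0.41 for PargB and -0.35 for PargC. The embryos of WT1 were the highest: without them the difference was -0.30 (limma adjusted p = 0.643), and the mean of the PargC embryos (8.77) was close to that of the WT3 embryos (8.73).

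**Figure D2:**
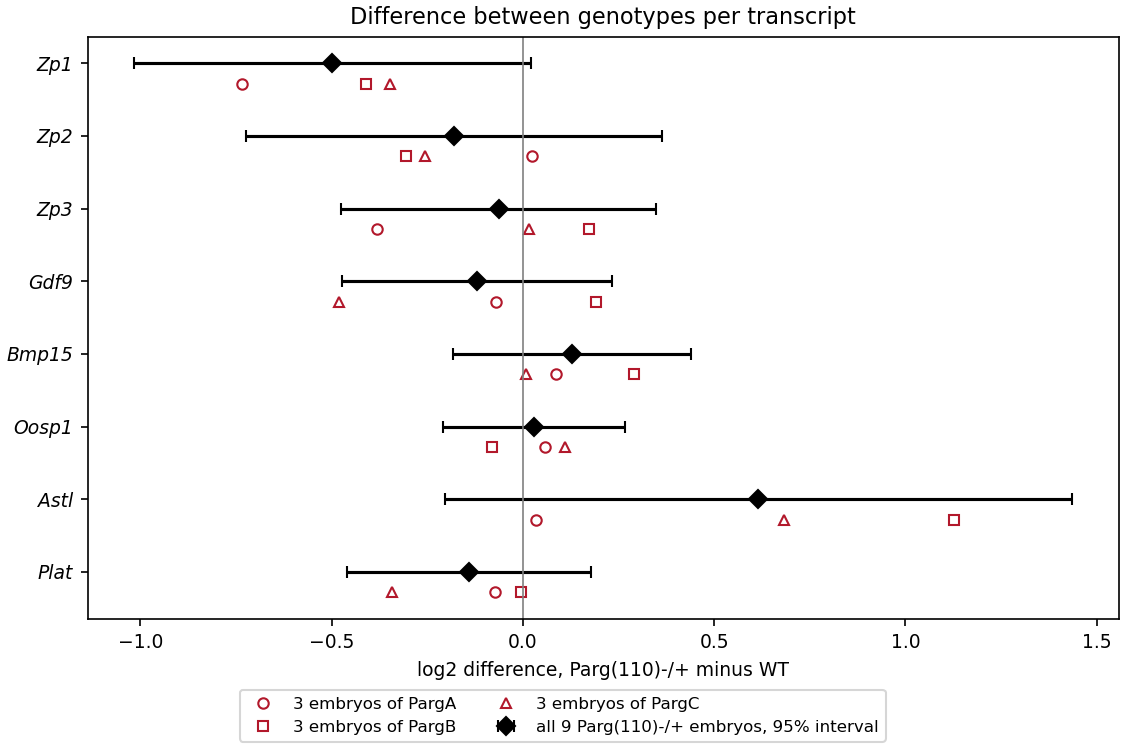
Log2 difference of each transcript, Parg(110)-/+ minus WT: black diamonds give all 9 Parg(110)-/+ embryos against 9 WT embryos with limma's 95% interval, and red symbols the 3 embryos of each father. Every interval crosses 0; Zp1 lies at -0.50, with -0.73, -0.41 and -0.35 for the 3 fathers against the same 9 WT embryos, and Astl at 0.62 with the widest interval, from -0.20 to 1.44.

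Astl lay higher in Parg(110)-/+ embryos by a log2 difference of 0.62 ± 0.39 (SE, limma adjusted p = 0.566), which spanned -0.20 to 1.44. It was 1.13 for the embryos of PargB, 0.68 for those of PargC and 0.03 for those of PargA. The narrowest interval was that of Oosp1, from -0.21 to 0.27 around a log2 difference of 0.03. It ran from -0.18 to 0.44 for Bmp15 (0.13), from -0.46 to 0.18 for Plat (-0.14) and from -0.47 to 0.23 for Gdf9 (-0.12). For Zp3 (-0.06) it ran from -0.48 to 0.35, and for Zp2 (-0.18) from -0.72 to 0.37. Adjusted p-values of these 6 in limma's fit lay between 0.736 and 0.936. Without PargB-3 the difference of Oosp1 was 0.12.

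The embryos of each Parg(110)-/- father were then set against the 9 WT embryos, and none of the 24 tests of the 8 messages was called, where 0%, 0.0139% and 0.0104% of probe sets were called for PargA, PargB and PargC. At an unadjusted p under 0.05 there was 1 of 24, against 5.32%, 12.8% and 7.24% of probe sets for the same fathers. It was Gdf9 in embryos of PargC, lower by -0.48 ± 0.21 (SE, limma adjusted p = 0.649). Limma's F tests between the 3 fathers of a genotype called 0 of 16, against 0.0104% of probe sets for PargA, PargB and PargC and 0.00347% for WT1, WT2 and WT3, and 0 of 16 had an unadjusted p under 0.05, against 5.34% and 4.39% of probe sets. The consensus correlation between embryos of 1 father over all probe sets was -0.023.

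Each Parg(110)-/+ embryo was also set against the 9 WT embryos, with the spread taken from WT embryos alone. None of 72 tests of the 8 messages was called, where 0.865% of all tests were called in Parg(110)-/+ embryos; with 1 WT embryo at a time set against its other 8, the count was also 0 of 72, and 0.731% of all tests were called. At an unadjusted p under 0.05 there were 6 of 72 in Parg(110)-/+ and 5 of 72 in WT embryos, where 7.22% of all tests in Parg(110)-/+ and 5.81% in WT embryos had such a p. The smallest adjusted p belonged to PargB-3, in which Oosp1 was lower by -0.74 (limma adjusted p = 0.153) and Zp2 by -1.52 (0.186). With array medians made equal, Oosp1 in PargB-3 lay at -0.84 and passed the threshold. The share of all tests that passed under that scaling was not counted, so this is not read as a result. PargC-1 had Zp2 at -1.21 (adjusted p = 0.351), and PargC-2 had Gdf9 at -0.94 (0.412) with Astl at 2.02 (0.663). Among WT embryos, Zp2 in WT1-3 lay at -0.96 (adjusted p = 0.199) and Gdf9 in WT1-2 at -0.70 (0.270).

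The 8 transcripts were next followed within embryos. No embryo had all 8 above or all 8 below the means over 18 embryos: the number above ranged from 2 (PargA-1 and PargC-1) to 7 (PargB-2 and WT1-1). PargB-1 held the highest value of Gdf9, Bmp15 and Oosp1, yet its Astl and Plat lay below the mean. PargB-3 held the lowest values of Zp2 and Oosp1, while its Astl was 1.06 above the mean on the log2 scale. PargC-2 was the highest for both Zp2 and Astl and the lowest for Gdf9. The map of deviations shows these embryos side by side.

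**Figure D3:**
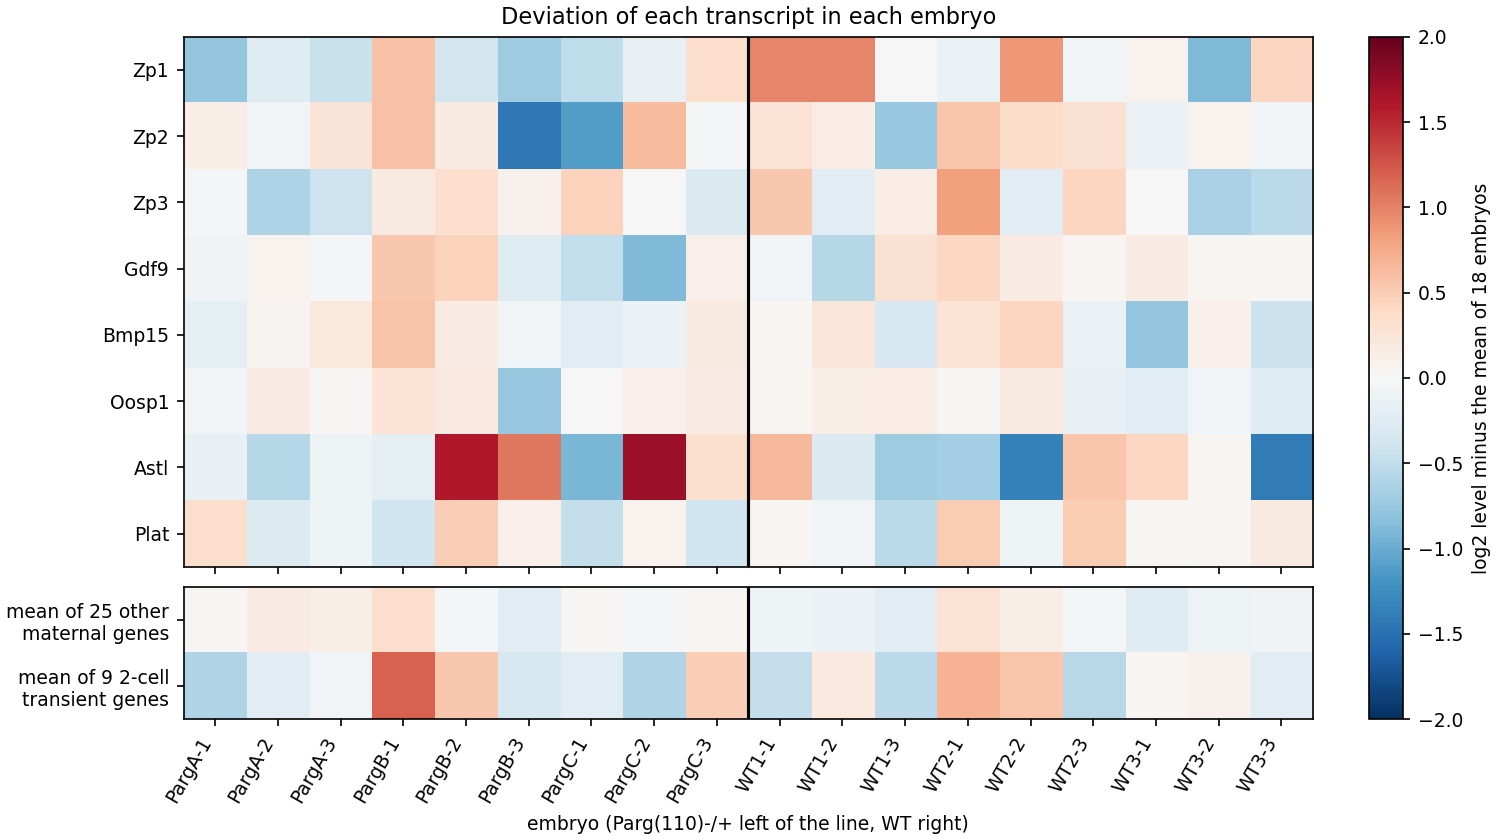
Log2 level of each transcript (rows) in each embryo (columns) minus the mean of the 18 embryos, with Parg(110)-/+ embryos left of the line and WT embryos right of it; the lower rows give the mean of 25 other maternal genes and of 9 genes expressed transiently at the 2-cell stage. Red is above and blue below the mean. PargB-3 is low for Zp2 and Oosp1 and 1.06 above the mean for Astl, and PargB-1 is high for Gdf9 and Bmp15 and for both list means.

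Pearson correlations over the 18 embryos were computed for all 28 pairs with two-sided permutation tests (100000 resamples) and Benjamini-Hochberg adjustment over the pairs. Of the 28, 19 were positive and 9 negative, with a median r of 0.12 and a range from -0.33 (Oosp1 with Plat) to 0.57 (Zp2 with Oosp1). None passed an adjusted p of 0.1, and 1 had an unadjusted p under 0.05. For the genes of the coat r was 0.37 for Zp1 with Zp2 (rho 0.31, adjusted permutation p = 0.656), 0.06 for Zp1 with Zp3 (rho 0.14, 0.941) and -0.01 for Zp2 with Zp3 (rho 0.22, 0.967). For Gdf9 with Bmp15, whose proteins act as partners, r was 0.23 (rho 0.32, permutation p = 0.363, adjusted 0.703), at 0.77 within Parg(110)-/+ and -0.19 within WT embryos.

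**Figure D4:**
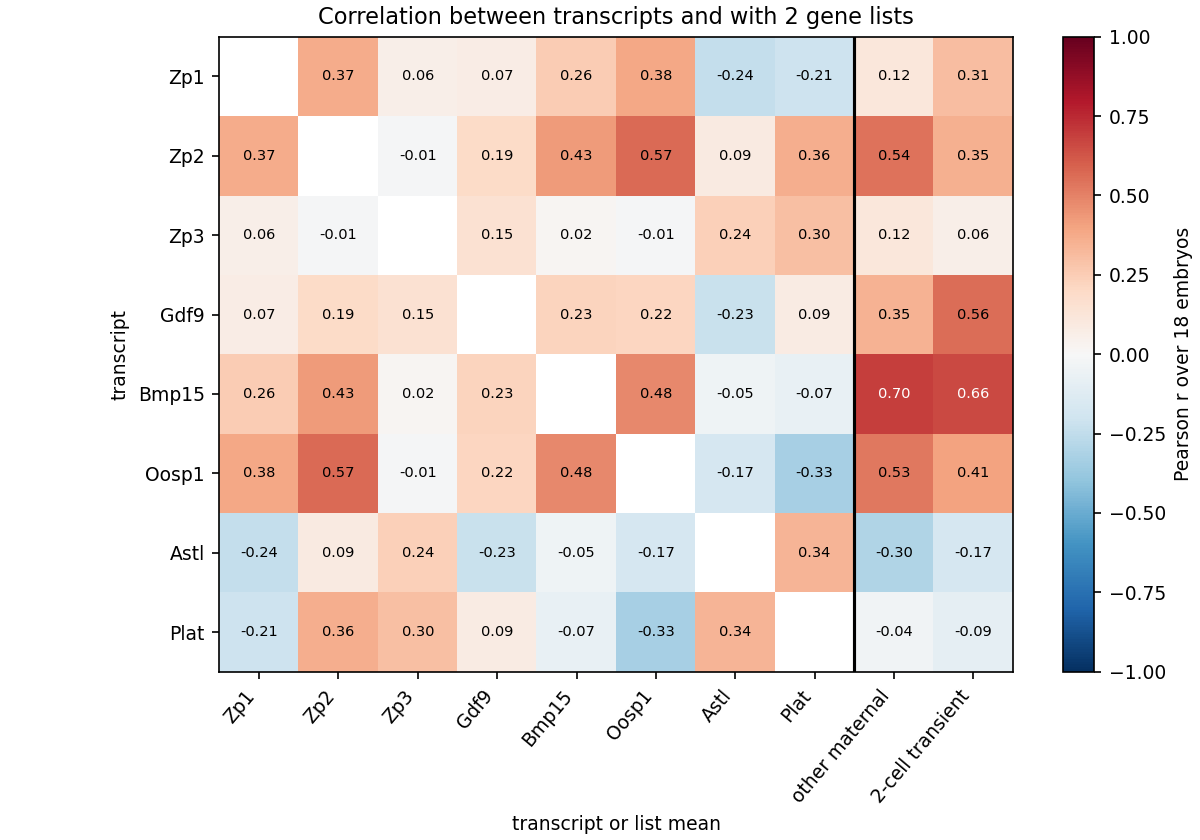
Pearson r over 18 embryos between the 8 transcripts (left of the line) and with the mean level of 25 other maternal genes and of 9 2-cell transient genes (right of the line). Red is positive and blue negative; the highest r between transcripts is 0.57 (Zp2 with Oosp1), and the highest with a list is 0.70 (Bmp15).

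Zp2 with Oosp1 had the highest r, 0.57 (rho 0.43, permutation p = 0.0232, adjusted 0.649), at 0.76 within Parg(110)-/+ and -0.01 within WT embryos. Without the 2 embryos farthest from the median Oosp1 level (PargB-3 and WT3-3) r was 0.12 (permutation p = 0.661), so the relation rested on those embryos. Bmp15 with Oosp1 gave r = 0.48 and rho = 0.64 (permutation p = 0.0506 and 0.00524; adjusted 0.656 and 0.130), at 0.42 within Parg(110)-/+ and 0.70 within WT embryos. Here r was 0.68 without PargB-3 and WT3-3 (permutation p = 0.00309), and without PargB-3 alone it was 0.73 and passed the threshold over the 28 pairs (adjusted permutation p = 0.0238).

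The levels were next set beside those of other genes whose messages are made in the oocyte and of genes that the embryo transcribes briefly at the 2-cell stage. The first list had 25 genes, all measured and 24 of them bright, led in level by Dppa3, Btg4 and Rfpl4. The second had 19 genes, of which 9 were read by a probe set of their own, led by Tdpoz2, Tcstv3 and Zfp352; the genes of its Tdpoz and Usp17-like families have near-identical copies, so their values may include signal from more than 1 gene. Of the 16 correlations between a transcript and the mean of a list, 5 passed an adjusted p of 0.1. The means of the lists correlated with each other at r = 0.61 over the 18 embryos, 0.59 within Parg(110)-/+ and 0.68 within WT embryos, so the 2 relations of a transcript are not separate.

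Bmp15 correlated with both lists. Its r with the other maternal genes was 0.70 (rho 0.61, permutation p = 0.00135, adjusted 0.0216), at 0.68 within Parg(110)-/+ and 0.70 within WT embryos, and it was 0.57 without PargB-1 and WT2-1 (permutation p = 0.0201). Its r with the 2-cell transient genes was 0.66 (rho 0.73, permutation p = 0.00322, adjusted 0.0258), at 0.90 within Parg(110)-/+ and 0.54 within WT embryos, and it was 0.50 without the same pair of embryos (permutation p = 0.0481). Across the single genes, r of Bmp15 was positive for 23 of 25 maternal genes and 9 of 9 2-cell transient genes. The share of positive r over all genes was not counted, so these counts are not read as a result. The maternal genes with the highest r were the apoptosis regulator Bcl2l10 (0.86) and the deadenylation factor Btg4 (0.80). The embryos with the highest Bmp15 level, PargB-1 (12.57) and WT2-2 (12.43), were among the 3 with the highest 2-cell transient mean, while WT3-1, with the lowest (11.24), had the lowest maternal mean but a 2-cell transient mean of 8.83, near the middle. Without WT3-1, r with the 2-cell transient genes was 0.84.

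**Figure D5:**
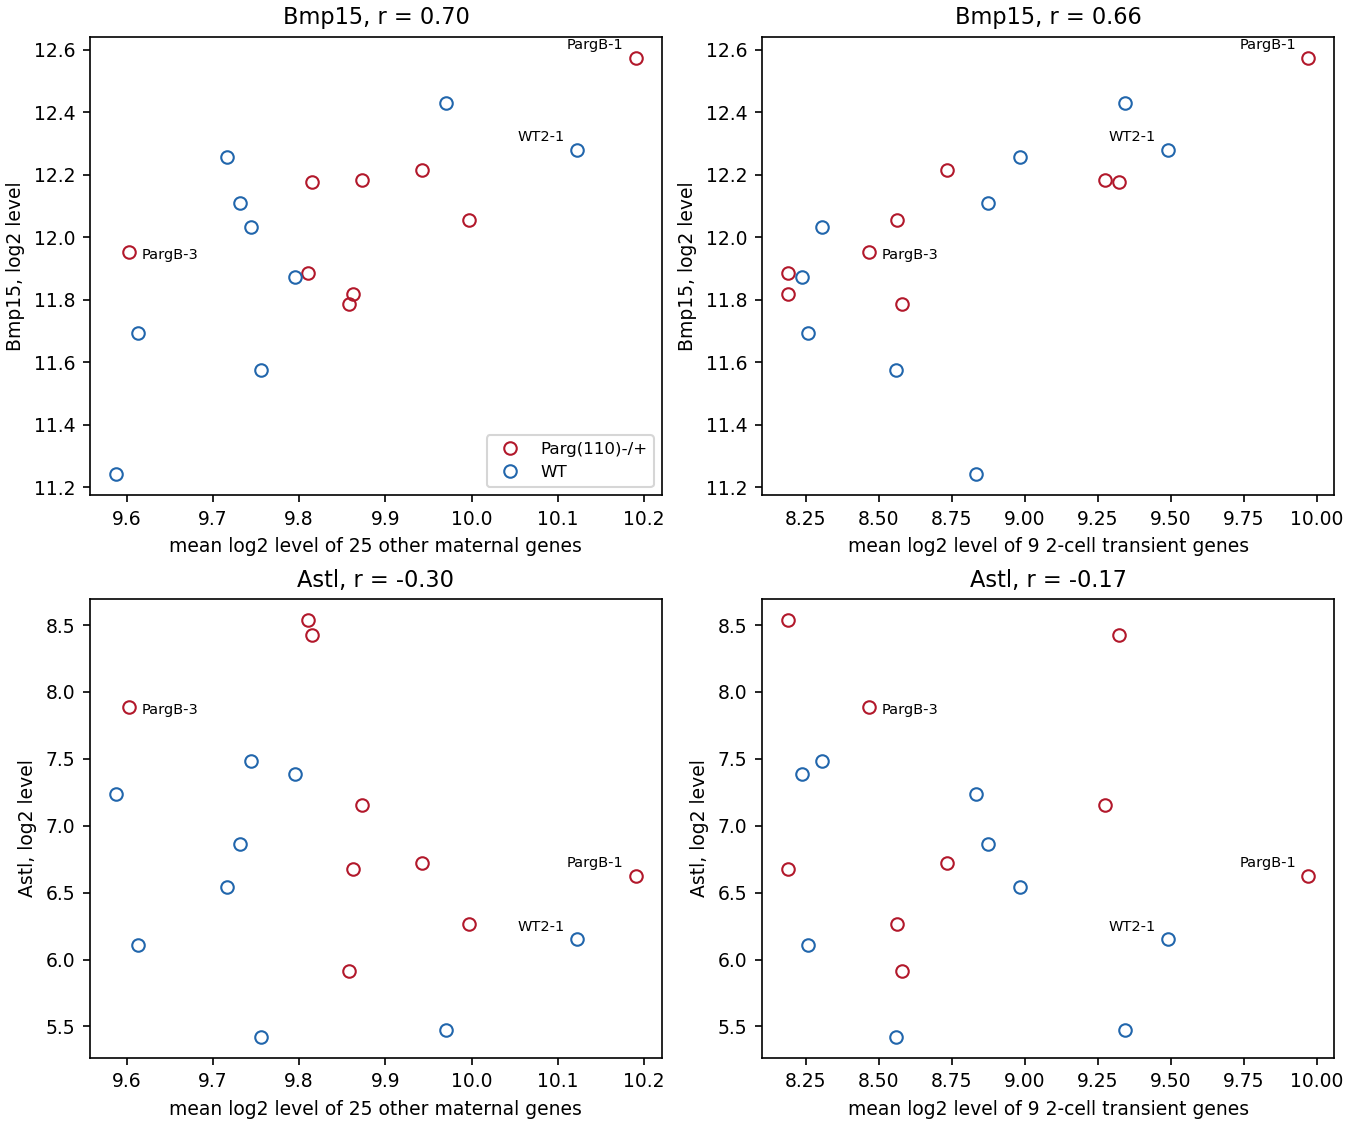
Log2 level of Bmp15 (upper panels) and Astl (lower panels) against the mean log2 level of 25 other maternal genes (left) and 9 2-cell transient genes (right), 1 point an embryo, red for Parg(110)-/+ and blue for WT. Bmp15 is higher where the means are higher (r = 0.70 and 0.66, highest in PargB-1), and Astl has r = -0.30 and -0.17.

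The other 3 relations past the threshold had adjusted p-values nearer to it. With the other maternal genes, r was 0.54 for Zp2 (rho 0.53, permutation p = 0.0212, adjusted 0.0758), at 0.61 within Parg(110)-/+ and 0.75 within WT embryos. For Oosp1 it was 0.53 (rho 0.53, permutation p = 0.0237, adjusted 0.0758), at 0.75 within Parg(110)-/+ and 0.25 within WT embryos. With the 2-cell transient genes, r was 0.56 for Gdf9 (rho 0.60, permutation p = 0.0151, adjusted 0.0758), at 0.80 within Parg(110)-/+ and 0.13 within WT embryos. Without PargB-1 and WT2-1 these were 0.43 for Zp2 (permutation p = 0.0979), 0.54 for Oosp1 (permutation p = 0.0280) and 0.36 for Gdf9 (permutation p = 0.167), so those of Zp2 and Gdf9 did not hold at an unadjusted p under 0.05 with those 2 embryos left out. Leaving out 1 embryo at a time, the lowest r for Zp2 was 0.44, without PargB-3. PargB-1 alone decided the count: without it 0 of 16 relations passed, with adjusted permutation p = 0.160 for Bmp15 and the maternal genes and 0.170 for Bmp15 and the 2-cell transient genes. Without WT2-1, WT2-2 or PargB-3 the count was 2, and without PargC-2 it was 3. With the mean of each father's embryos removed and values permuted only within fathers, 3 of 16 passed. They were Bmp15 with the maternal genes (r = 0.69, adjusted permutation p = 0.0491), Bmp15 with the 2-cell transient genes (r = 0.73, 0.0272) and Oosp1 with the 2-cell transient genes (r = 0.70, 0.0593).

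For Astl, Plat, Zp1 and Zp3 no relation with a list passed. Their r lay between -0.30 (Astl) and 0.12 with the maternal genes and between -0.17 (Astl) and 0.31 (Zp1) with the 2-cell transient genes, with adjusted permutation p of 0.362 or more. Taken singly, the 25 maternal genes gave a positive r with Astl for 5. The share over all genes was not counted, and the median r to Astl over 10256 genes with a bright probe set was 0.009. As a measure of the arrays themselves, chosen after the data had been seen, each transcript was set against its array's median and the mean of its dim probe sets. None of these 16 relations passed an adjusted permutation p of 0.1, and 1 had an unadjusted p under 0.05: Zp2 had r = -0.57 with the array median (rho -0.39, permutation p = 0.0143, adjusted 0.229). For Bmp15 r was 0.09 with the array median and 0.22 with the dim probe sets.

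Among 10256 genes with a bright probe set of their own, those with the highest r to each transcript are given as a description; they were picked as the highest, so their size is no test. Bmp15 had the closest neighbours: Eif4e1b, an oocyte form of the cap-binding factor (r = 0.90, at 0.84 within Parg(110)-/+ and 0.96 within WT embryos), Tram1, of the protein translocation site of the endoplasmic reticulum (0.89), and Cnot6l, a deadenylase of the CCR4-NOT complex (0.87). Over all 10256 genes the median r to Bmp15 was 0.03. Zp2 was nearest to Sestd1 (0.85), Ergic2 (0.84) and Tcl1b3 (0.82), and Oosp1 to the complex I assembly factor Ndufaf4 (0.85), the mitochondrial calcium uptake protein Micu2 (0.84) and Unc50 (0.83).

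Zp1 had 1 neighbour of similar r, the cyclic AMP phosphodiesterase Pde3a (0.84), followed by Cgnl1 (0.75) and Ate1 (0.74), and Zp3 was nearest to Ddx28 (0.76), Cbll1 (0.74) and Acot3 (0.71). Gdf9 was nearest to Rabep1 (0.75), Fam98a (0.70) and Dld (0.70), Astl to Rc3h2 (0.75), Mxra7 (0.75) and Epg5 (0.72), and Plat to the condensin subunit Smc2 (0.77), Ddx19b (0.76) and Nudcd3 (0.73). No gene was among the nearest 3 of more than 1 transcript.

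Other genes of the same pathways were followed through lists. None of their genes was called between the genotypes (0 in each list at an adjusted p under 0.1 in limma's fit), and the counts at an unadjusted p under 0.05 are given beside the 10.5% of all probe sets (6.22% with array medians made equal). Of 9 oocyte transcription factors 7 were bright, led by Taf4b, Foxo3 and Nr6a1, and 1 had an unadjusted p under 0.05. Nobox, the homeobox factor named above, stood at 8.36 ± 0.99 in Parg(110)-/+ and 7.85 ± 0.72 in WT embryos (SD, n = 9 each, limma adjusted p = 0.629), and Figla differed by 0.08 (adjusted p = 0.628). The 1 gene under 0.05 was Lhx8, at 8.45 ± 0.16 in Parg(110)-/+ and 8.07 ± 0.45 in WT embryos (SD, n = 9 each, adjusted p = 0.437). Of the 25 other maternal genes 1 had an unadjusted p under 0.05 (Kpna7, log2 difference 0.75, limma adjusted p = 0.423). Of the 9 2-cell transient genes 0 did. With array medians made equal Kpna7 kept such a p (0.69), and Dnmt1 (-0.16) and Tdpoz2 (-0.36) had one as well.

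Of 18 genes for processing, receptors, Smads and inhibitors of GDF9 and BMP15, 15 were bright and 0 had an unadjusted p under 0.05. Bmpr2, the type II receptor of both ligands, had a level of 11.22 ± 0.28 in Parg(110)-/+ and 11.16 ± 0.24 in WT embryos, Smad3 of 10.17 ± 0.36 in Parg(110)-/+ and 10.05 ± 0.44 in WT embryos, and Smad2 of 9.38 ± 0.81 in Parg(110)-/+ and 9.23 ± 0.65 in WT embryos (SD, n = 9 each). Of 8 further oocyte secreted and egg surface genes all were bright and 1 had an unadjusted p under 0.05 (Cd81, a tetraspanin, with a log2 difference of 0.12 and a limma adjusted p of 0.463). Their brightest were Oosp3, a relative of Oosp1, at 11.78 ± 0.54 in Parg(110)-/+ and 11.65 ± 0.27 in WT embryos, and Snap23, a fusion protein of exocytosis, at 11.29 ± 0.42 in Parg(110)-/+ and 11.20 ± 0.77 in WT embryos (SD, n = 9 each). Oosp2 varied widely, at 8.35 ± 1.07 in Parg(110)-/+ and 8.46 ± 1.64 in WT embryos. Of 7 measured genes of the plasminogen system 1 was bright (Serpinf2, the inhibitor of plasmin), and the means of Plg, Plau and Plaur lay below that of the median probe set. Of these 7, 1 had an unadjusted p under 0.05 (Plg, the plasminogen precursor that PLAT cleaves, with a log2 difference of 0.14 and a limma adjusted p of 0.450). Of 23 measured genes of maternal message poly(A) control and decay 22 were bright, led by Cnot8, Btg4 and Cnot1, and 1 had an unadjusted p under 0.05 (Dcp1a, a decapping factor, with a log2 difference of -0.36 and a limma adjusted p of 0.362). With array medians made equal Cd81, Lhx8 and Plg no longer had such a p, and the transcription factor Nr6a1 did (-0.23). Of the 23 decay genes 4 then did, all with lower levels in Parg(110)-/+. They were Dcp1a at -0.41, the exonuclease Xrn1 at -0.56, the polyadenylation factor Cpsf4 at -0.53 and Cnot8 at -0.15 (limma adjusted p of 0.735 or more). With a second quantile normalization 2 of the 23 were lower at an unadjusted p under 0.05 (Dcp1a and Xrn1) and 1 was higher (Tob2, 0.23).

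Each array reads a whole embryo with any cell attached to it, so fewer such cells and less RNA in each cannot be told apart. Of 14 measured cumulus and granulosa markers 2 were bright (Amhr2 and Inhba), and the mean of the list was 5.78 to 5.98 in Parg(110)-/+ and 5.63 to 5.93 in WT embryos. Of 6 measured blood markers none was bright, and the globin genes of that list (Hba-a1, Hba-a2, Hbb-bs and Hbb-b1) had no probe set of their own. Of 7 measured oviduct markers 5 were bright, led by Epcam and Krt8, and Ovgp1 had no probe set of its own. Of 10 spermatid markers 3 were bright, led by Prm2. The mean levels of these lists lay at 5.37 to 5.54 for blood, 7.08 to 7.53 for oviduct and 5.62 to 5.79 for spermatids in Parg(110)-/+ embryos, and at 5.22 to 5.48, 6.97 to 7.31 and 5.45 to 5.80 in WT embryos. As deposited, 33 of these 37 markers had the higher mean in Parg(110)-/+ embryos, beside 19337 of all 28815 probe sets. Among them were 11 of 14 for cumulus and granulosa cells, 6 of 7 for oviduct, 6 of 6 for blood and 10 of 10 for spermatids. Of the 37, 7 had an unadjusted p under 0.05 (18.9%, beside 10.5% of all probe sets), all with higher levels in Parg(110)-/+: Has2, Ptgs2, Inhba, Col1a2, S100a8, Prm1 and Adam3, with log2 differences of 0.13 to 0.43 and limma adjusted p of 0.362 to 0.470. With array medians made equal 24 of 37 were higher, beside 13843 of 28815 probe sets, and 1 (Prm1, 0.12) had such a p (2.7%, beside 6.22%). With a second quantile normalization 24 of 37 were higher, beside 16085 of 28815, and 2 had such a p (5.41%, beside 6.32%). The part of these markers in the results was not tested. Array medians were 6.44 to 6.53 in Parg(110)-/+ and 6.34 to 6.49 in WT embryos. Parg itself had a level of 10.23 ± 0.48 in Parg(110)-/+ and 10.54 ± 0.41 in WT embryos (SD, n = 9 each, limma adjusted p = 0.571); its 1 probe set does not separate the alleles.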

How the data were processed

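The log2 values were deposited by the authors, who made them with RMA in Partek (robust multichip average: background was corrected, arrays were quantile normalized and probes were summarized into probe sets; versions not given in the sources used here). Because all arrays were given 1 common distribution, a change shared by most genes is reduced, and dim values are compressed. All 18 arrays were used, and their number limits the precision; pairs of arrays correlated at 0.924 to 0.958 across probe sets. Of 28815 probe sets 21780 named 1 gene, 1605 several and 5430 none; where several probe sets named 1 gene, the brightest by mean stood for it. The genes and lists were chosen with earlier results of these data known.

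Differences were fitted with limma 3.58.1 in R 4.3.3 (lmFit, eBayes, two-sided, Benjamini-Hochberg over all probe sets, call at adjusted p under 0.1, as in the study's methods). Where father or genotype means were removed, correlations were permuted within fathers or genotypes. Correlations used scipy 1.17.1 and numpy 2.4.6 under Python 3.11.15. Embryo numbers are names only; embryos of a father are siblings, and p-values measure the spread between these embryos. The consensus correlation within fathers was -0.023. The limma fits without a block, the one-way test and the permutation tests of correlation were tested on simulated data, and the other steps were not. Named beside the 8 genes are the 3 nearest genes of each by r, the brightest genes of each list and Parg; single list genes with an unadjusted p under 0.05, and Nobox, Figla, Plg, Plau and Plaur, were chosen after their values were seen, as was the SD ratio without each embryo. Alternatives were other scalings, a filter on dim probe sets, the methods' one-way test, father as a block or as a mean, and leaving out embryos or fathers. Promoter sequences came from RefSeq annotation (GRCm38.p6); those of Zp1, Zp2, Gdf9 and Plat were not used here.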

Additional observations from a re-analysis of the deposited data

Results flagged for a closer look

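A gap between the lowest embryo and the next was large against the whole range of its group in 3 of the 16 groups of 9 embryos examined (8 transcripts in each genotype). The rule by itself marks about 1 group in 20. The share over all probe sets was not counted, and the groups share embryos, so this count is not read as a result. Among Parg(110)-/+ embryos the gap of PargB-3 for Oosp1 was 0.683 of the range, above Dixon's 95% critical value for 9 samples. Among WT embryos the gap of WT1-2 for Gdf9 was 0.515 of the range, and that of WT1-3 for Zp2 was 0.495, just past the critical value. PargB-3 was also the lowest Parg(110)-/+ embryo for Zp2, where the gap was 0.15 of the range, because PargC-1 lay near it.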

How the results depend on the processing

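Calls of the 8 transcripts between genotypes stayed at 0 under every alternative run. In limma's fit 1 of the 8, Zp1, had an unadjusted p under 0.05 in 6 of 30 alternatives. These were array medians made equal (unadjusted 0.0388), leaving out father WT3 (0.0146), and leaving out WT2-1 (0.0489), WT3-2 (0.00965), PargB-1 (0.0223) or PargC-3 (0.0351), with adjusted p of 0.410 or more. No paired analysis was possible because embryo numbers only name siblings within a father. Of the genotype differences, those of Zp1, Zp2, Astl and Plat kept their direction under every alternative. Their sizes moved: Zp1 was -0.30 without father WT1, Zp2 was -0.019 without father WT2 and -0.012 without PargB-3, Plat was -0.020 without WT2 and -0.040 without PargC, and Astl was 0.36 without PargB. The cause of these and of the other transcripts' changes was not tested. Zp3 was 0.096 without father PargA, 0.091 without WT2, and -0.15 to 0.036 leaving out 1 embryo at a time. Gdf9 was 0.061 without PargC, and Bmp15 was -0.022 without WT3. Oosp1 was -0.027 with array medians made equal, -0.012 without PargC, -0.050 without WT3, and -0.0025 to 0.12 leaving out 1 embryo. With array medians made equal the single-embryo test of Oosp1 in PargB-3 was called, where the share over all tests was not counted.

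Between pairs, 0 to 1 passed the threshold leaving out 1 embryo. With lists, 3 relations passed with father means removed and 0 to 5 leaving out 1 embryo. With father means removed, r was 0.58 for Zp2 with the maternal list (adjusted permutation p = 0.247), 0.70 for Oosp1 with the maternal list (0.304) and 0.52 for Gdf9 with the 2-cell transient list (0.247), none of them past the threshold, and that of Oosp1 with the maternal list was 0.54 with genotype means removed (0.109). With father means removed r was -0.34 for Zp1 with Zp3, -0.026 for Zp3 with the maternal list and -0.23 for Zp3 with the 2-cell transient list. With array medians made equal r was 0.072 for Zp2 with Zp3 and 0.12 for Plat with the maternal list, where it was 0.035 with genotype means removed.

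Leaving out 1 embryo, r ran from -0.10 to 0.13 for Zp1 with Zp3 and -0.16 to 0.14 for Zp2 with Zp3. With the maternal list it ran from -0.019 to 0.21 for Zp1, 0.44 to 0.64 for Zp2, -0.12 to 0.23 for Zp3, 0.61 to 0.75 for Bmp15, 0.45 to 0.63 for Oosp1 and -0.24 to 0.15 for Plat. With the 2-cell transient list it ran from -0.13 to 0.14 for Zp3, 0.46 to 0.65 for Gdf9, 0.55 to 0.84 for Bmp15 and -0.26 to 0.10 for Plat. The SD over embryos ran from 0.45 to 0.58 for Zp2, 0.30 to 0.38 for Gdf9, 0.27 to 0.33 for Bmp15 and 0.15 to 0.24 for Oosp1. Array values are relative, and no depth applies; of the 8 transcripts, Astl lay nearest the array medians.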
